A study of Drosophila melanogaster with 6 samples.

Results

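Levels and co-detection in epithelial cells are described for 8 transcription factor genes that pattern the joints of the Drosophila leg (dysf, TfAP-2, net, nub, drm, odd, sob and bowl), in single-cell RNA profiles of the pupal foreleg, first tarsal segment. They were picked by symbol and are 8 of the 16496 features counted. The tissue lay between a cut at the tibia/tarsal joint and a cut through the middle of the second tarsal segment, and segments of many pupae were pooled in each library. There were 6 libraries, each the only one of its kind. The 12 h female and the 12 h, 20 h and 36 h male pupae were dsx-GAL4 > UAS-mCherry, a doublesex driver with a red reporter, the 16 h male pupae were dsx-GAL4 > UAS-GFP, and RAL-517 was the strain of the 24 h females. Hours are counted after puparium formation (APF). Where 6 values follow each other, they run by age: both 12 h libraries (female, then male), the 16 h male, the 20 h male, the 24 h female and last the 36 h male. With 1 library per group, age, sex, genotype and library cannot be told apart, and no difference between libraries has a replicate check.

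The joints of the fly leg form at the distal edge of each segment, where ligands on neighbouring cells activate the Notch receptor. Notch then switches on sets of transcription factors, several of those described here among them. The cells of the joint fold, change shape and in part die as it opens. Whether Notch switches on net or bowl in this tissue was not tested. dysf encodes a bHLH-PAS protein needed for the joints between tarsal segments. TfAP-2 encodes an AP-2 protein needed for joints and leg growth. nub encodes a POU-domain protein. drm, odd, sob and bowl encode related zinc-finger proteins, the odd-skipped family, in which Drm frees Bowl from its inhibitor Lin. net encodes a bHLH protein known best as a repressor of vein fate in the wing.

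In the BDGP6 annotation 3 of the odd-skipped family genes are close neighbours on chromosome arm 2L. drm (FBgn0024244) spans 3539247 to 3548423 on the plus strand. sob (FBgn0004892) spans 3578013 to 3580769 on the minus strand, 29589 bp away. odd (FBgn0002985) spans 3604224 to 3606756 on the minus strand, a further 23454 bp on. bowl (FBgn0004893) follows after 164943 bp, at 3771700 to 3784121 on the plus strand. net (FBgn0002931, 82421 to 87387, minus) and nub (FBgn0085424, 12587625 to 12628135, plus) are on the same arm. TfAP-2 (FBgn0261953) is at 21586828 to 21613349 on the plus strand of 3L. dysf (FBgn0039411) is at 26076592 to 26098711 on the minus strand of 3R.

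Epithelial cells were taken as cells with 0 UMIs (unique molecular identifiers, which count RNA molecules) of Hml, elav, repo and twi, the defining genes of hemocytes, neurons, glia and muscle precursors. The rule kept 46393 of 64510 cells, between 65.5% of the cells of the 24 h female and 84.2% of those of the 16 h male. The summed epithelial counts ran from 48468246 UMIs in the 16 h male to 95912242 in the 24 h female, and the median cell held 5079 to 11854 UMIs. All 6 epithelium markers were found in every library, at a summed 1395 to 2254 CPM (each gene's UMIs relative to all UMIs in the summed cells, on the usual CPM scale). Other markers were low but not absent: summed levels were 17.4 to 50.4 CPM for hemocytes, 22.2 to 160 for neurons, 209 to 323 for glia, 75.7 to 305 for muscle, 55.2 to 168 for the bristle lineage and 4.54 to 55.9 for tendon cells, with Hml, elav, repo and twi at 0 by the rule. The 36 h male stood highest for neuron, bristle and tendon markers. Any pair of libraries shared 19 to 41 cell barcodes, at most 0.388% of the smaller library. All intervals given are 95% intervals for counting error only.

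The levels of the 8 genes moved in different directions across the libraries. dysf and odd stood highest in the 36 h male, nub, drm and sob were lowest there, and bowl was steady. dysf measured 16.3, 10.8, 14.2, 24.0, 19.5 and 27.6 CPM. The 20 h and 36 h males were thus the high libraries, and the 12 h male the low one. TfAP-2 measured 42.5, 38.5, 55.9, 39.7, 68.8 and 60.3 CPM. Its order did not follow age, since the 20 h male was at the level of the 12 h libraries. net measured 4.21, 6.70, 5.98, 5.93, 4.97 and 3.77 CPM. The intervals of the 16 h and 20 h males overlapped for net, as did those of the 12 h female and 36 h male.

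nub was lower in each older library, at 27.3, 23.9, 19.4, 13.8, 9.23 and 6.80 CPM. No neighbouring pair of these intervals overlapped. drm measured 19.2, 29.4, 22.1, 16.6, 6.60 and 3.91 CPM. sob measured 12.0, 15.5, 19.3, 12.7, 6.64 and 2.77 CPM. The 24 h female and the 36 h male were the 2 low libraries for both genes, and the high library was the 12 h male for drm and the 16 h male for sob. odd measured 3.67, 2.30, 2.41, 4.62, 2.21 and 7.81 CPM, so that only the 20 h and 36 h males stood above the 12 h female. bowl measured 184, 157, 203, 206, 212 and 172 CPM, a range of less than 1.5-fold.

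**Figure D1:**
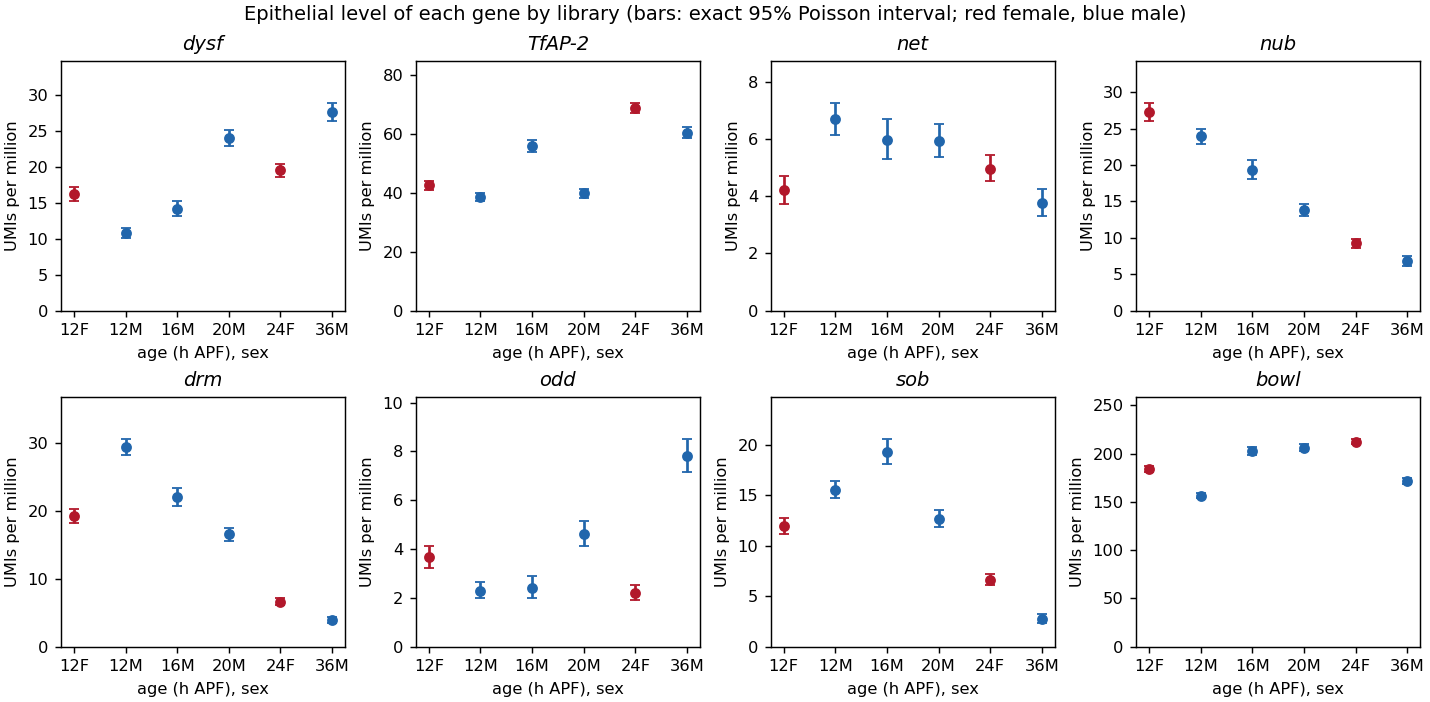
Level of each gene in CPM, summed over epithelial cells (vertical axis, from 0) in the 6 libraries (horizontal axis: age in hours APF and sex, F female, M male). Points are single libraries and bars exact 95% Poisson intervals. nub runs from 27.3 in the 12 h female down to 6.80 in the 36 h male, while odd is highest in the 36 h male at 7.81.

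Against the 12 h male, 2 genes were more than 2-fold higher in the 36 h male, dysf by 1.35 (1.24 to 1.47) and odd by 1.76 (1.52 to 2.01) on the log2 scale. In the same comparison 3 were more than 2-fold lower, drm with a log2 ratio of -2.91 (-3.11 to -2.73), sob with -2.49 (-2.72 to -2.26) and nub with -1.82 (-1.97 to -1.67). Of all genes with at least 20 UMIs, 29.6% were more than 2-fold higher and 29.5% more than 2-fold lower in this comparison, so shifts of this size were common between these 2 libraries. Without cells that held UMIs of bristle lineage genes, the nub ratio was -2.91, and that between the females below was -2.38 in place of -1.57. The 36 h tissue was also dissociated for longer, and its epithelial cells carried the highest neuron, bristle and tendon marker levels; the part of either in these ratios was not tested.

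In the 20 h male, dysf (1.15, interval 1.03 to 1.26) and odd (1.01, 0.74 to 1.27) were past 2-fold above the 12 h male, beside 17.8% of all genes, and none of the 8 was past 2-fold lower, beside 22.3%. The odd ratio lay at the limit, and was 0.98 with no doublet removal, 0.99 at a minimum of 1000 genes and 0.62 with cells thinned to 3000 UMIs, where drm was at -1.05. In the 16 h male none was past 2-fold in either direction, beside 14.7% of genes higher and 11.5% lower. In the 24 h female, nub (-1.57, -1.68 to -1.45) and drm (-1.54, -1.68 to -1.41) were past 2-fold below the 12 h female, beside 15.1% of all genes. sob (-0.85) and odd (-0.73) were lower within 2-fold there, TfAP-2 was higher (0.70), and none passed 2-fold higher, beside 12.3%. Between the sexes at 12 h none of the 8 was past 2-fold, beside 3.45% of genes higher and 9.16% lower in the male. The widest sex ratios, male over female, were those of net at 0.67 (0.47 to 0.88), odd at -0.67 (-0.95 to -0.40), drm at 0.61 (0.52 to 0.71) and dysf at -0.58 (-0.71 to -0.46).

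The share of epithelial cells with a UMI was 6.26% to 14.7% for dysf, 17.8% to 30.0% for TfAP-2, 2.44% to 4.05% for net, 3.86% to 15.2% for nub, 1.14% to 8.49% for drm, 1.19% to 6.37% for odd, 1.74% to 7.73% for sob and 59.8% to 84.0% for bowl. These shares depend on depth. After thinning every cell to 3000 UMIs, they were 3.27% to 8.70% for dysf, 9.42% to 15.1% for TfAP-2, 0.972% to 2.06% for net, 1.63% to 6.90% for nub, 0.613% to 5.27% for drm, 0.661% to 2.06% for odd, 0.718% to 4.52% for sob and 35.4% to 47.0% for bowl. Thinning left out 87 shallow epithelial cells of the 24 h female and up to 2301 of the 12 h male. Hemocytes, blood cells with at least 3 Hml UMIs, served as a type that should lack the epithelial joint genes. Of 159 hemocytes, with library medians of 7480 to 16143 UMIs, a UMI was found in 2.52% (0.690% to 6.32%) for dysf, 3.77% for TfAP-2, 0.629% for net, 1.89% each for nub, drm and sob, 18.9% for bowl and 3.14% (1.03% to 7.19%) for odd. The odd share in epithelial cells lay inside the hemocyte interval in all 6 libraries, so the spread of odd over cells cannot be told from free RNA. Below, odd is read only from its company with other genes. Other shares were also no higher than the upper end of their hemocyte interval: drm in the 4 libraries from 16 h on and sob in the 24 h female and 36 h male (5.41%), nub in the 36 h male (5.41%), net in the 12 h female, 16 h male and 36 h male (3.45%) and dysf in the 16 h male (6.32%).

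drm UMIs were unevenly spread over cells. In the 3 youngest libraries, where 5.30% to 8.49% of epithelial cells held drm, the 1% of cells with most drm held 49.4%, 48.9% and 52.0% of its UMIs. A single cell of the 12 h male held 85 drm UMIs, and the top cell of the 36 h male 20. In the later libraries 1.14% to 4.71% of cells held drm. The top 1% held 68.5%, 85.6% and 96.0% of drm UMIs in the 20 h male, 24 h female and 36 h male. That was 71, 82 and 73 cells, where 331, 170 and 83 cells held drm. Fewer positive cells alone raise this share, so it is not compared with the younger libraries. bowl, found in most cells, had 4.36% to 6.94% of its UMIs in the top 1%.

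Co-detection differed widely among the 28 pairs of the 8 genes. In all 6 libraries dysf, TfAP-2 and net were detected together more often than their shares at like depth gave, drm, odd and sob likewise, and TfAP-2 and nub were found together less often. These sets were not closed. dysf met drm (1.26 to 2.44, median 1.96) and sob (1.40 to 2.66, median 1.66) above expectation in 6 of 6 libraries. TfAP-2 met drm (median 1.45) and sob (median 1.44) above expectation in 6 of 6. The ratio a pair can reach is lower where its commoner gene is found in more cells. Medians of pairs with TfAP-2 and with the rarer drm or sob are therefore not like for like. The expected number was formed within 10 classes of cells by total UMIs. For dysf and TfAP-2 the observed number over the expected was 1.44 to 1.90 in the 6 libraries (median 1.61). In the 36 h male, 500 cells held both where 263 were expected, and in the 12 h male 204 where 121 were expected. dysf and net gave 2.48 to 3.65 (median 2.76), and TfAP-2 and net 1.76 to 2.77 (median 2.43). Among cells with net, 30.9%, 23.4%, 23.1%, 57.9%, 55.3% and 57.1% also held dysf. The 3 later libraries gave the higher shares, and dysf was also found in more of all their epithelial cells, 13.1% to 14.7% against 6.26% to 10.5%. All of dysf, TfAP-2 and net were found in 35, 52, 35, 136, 145 and 81 cells, where independent shares gave 5.36, 5.82, 2.81, 18.4, 21.6 and 7.74.

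TfAP-2 and nub met in 0.485 to 0.605 of the expected number of cells, below 1 in all 6 libraries (median 0.507). In the 24 h female this was 82 cells where 149 were expected, and in the 36 h male 24 where 48.8 were expected. Among nub cells, 8.57% to 16.5% held TfAP-2. The other pairs below expectation in every library were net with odd (0.437 to 0.990), net with sob (0.268 to 0.887) and net with drm (0 to 0.925), some of which lie close to 1. With a minimum of 1000 genes per cell, 2 pairs and not 4 were below in all 6 libraries. With every cell thinned to 3000 UMIs, the mean log2 ratio of TfAP-2 and nub was -1.49 in place of -0.93, net with odd was below in 3 of 6 libraries, and net with drm and with sob stayed below in 6 of 6.

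drm and sob had the highest ratio of all 28 pairs by median, at 5.16 to 21.8 times the expected number (median 5.85). In the 12 h male 328 cells held both where 57.2 were expected, and in the 36 h male 33 where 1.51 were expected. drm and odd gave 2.88 to 6.63 (median 4.34), and odd and sob 2.33 to 6.52 (median 3.11). All of drm, odd and sob were found in 34, 82, 28, 37, 20 and 12 cells, where independent shares gave 1.71, 1.52, 0.646, 1.12, 0.280 and 0.128. The family member bowl met drm at 0.944 to 1.15, odd at 0.983 to 1.10 and sob at 1.01 to 1.12 times the expected number. With bowl in 59.8% to 84.0% of epithelial cells, its ratios cannot rise far above 1. They are therefore not comparable with those of pairs of rarer genes. nub met sob at 1.85 to 2.38, more closely than it met drm by median (1.61) or odd (1.32). All ratios are descriptions of sparse counts, made without a test. Free RNA and pairs of cells in a droplet can add such cells, and their part was not tested.

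**Figure D2:**
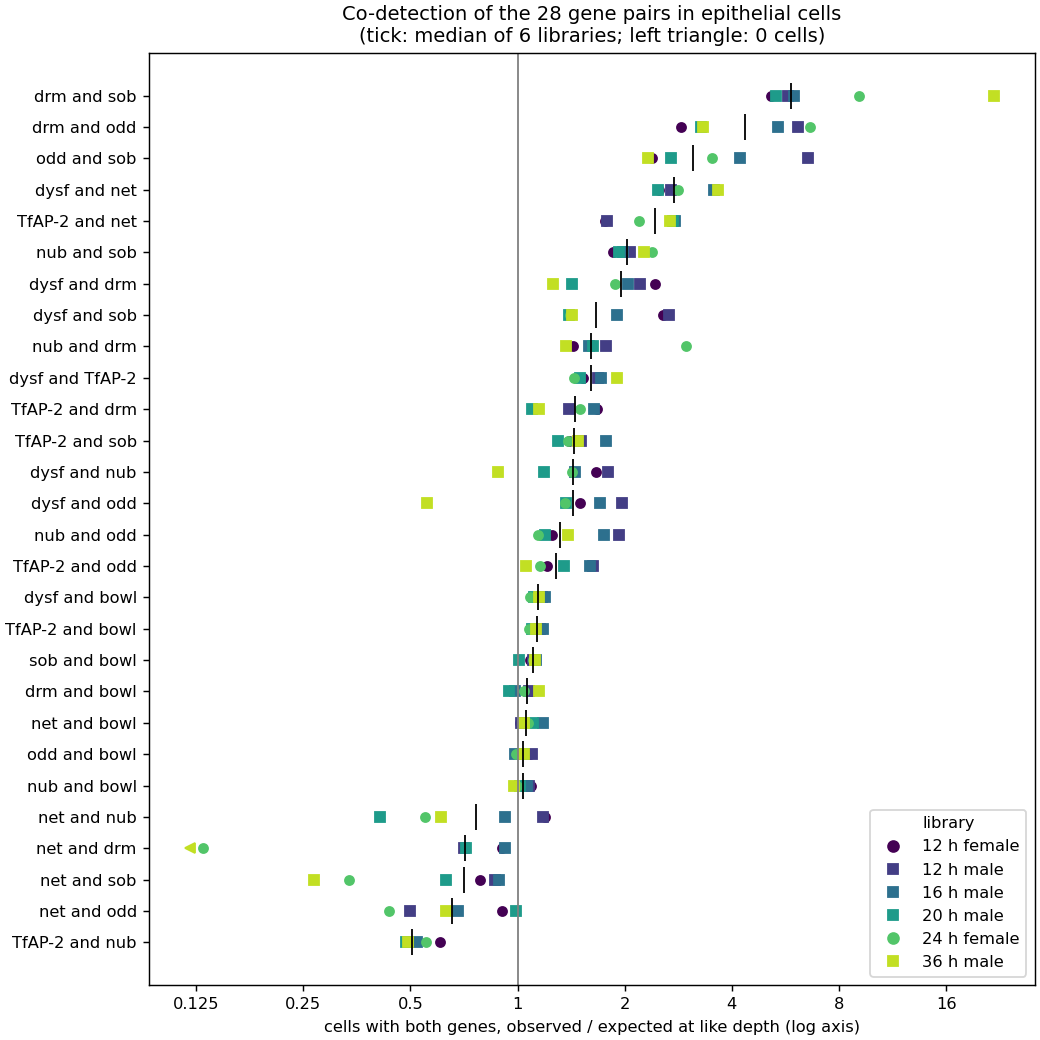
Cells with a UMI of both genes over the number expected from the 2 shares within 10 depth classes (horizontal log axis), for each of the 28 pairs (vertical axis); symbols are the 6 libraries and ticks their medians. drm and sob stand at the top (median 5.85) and TfAP-2 and nub at the bottom (median 0.507). No cell held net and drm in the 36 h male. The highest ratio a pair can reach is lower where its commoner gene is found in more cells, most of all for bowl.

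To describe the cells that carry each gene, positive cells (at least 1 UMI) were set against as many cells of the same library with 0 UMIs and near equal depth. The sums were compared over the 6 libraries with edgeR's quasi-likelihood test with Benjamini-Hochberg adjustment, with the library as a block, and folds are log2 positive over negative. The libraries stand in as replicates of the contrast, although they differ in age, sex and genotype. Of 54 folds of one of the 8 genes in cells of another, 36 passed an adjusted p of 0.05, 32 higher and 4 lower. The positive and negative cells of 2 genes overlap, so dysf in TfAP-2 cells and TfAP-2 in dysf cells are views of one relation.

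In dysf-positive cells 6 of the other 7 genes were higher, beside 13.7% of all 7743 genes tested. net rose most. Its levels were 14.8, 29.4, 30.0, 27.6, 30.3 and 17.2 CPM in dysf-positive cells and 1.80, 3.91, 7.37, 4.56, 3.01 and 2.19 CPM in their partners. The groups did not overlap, and the log2 fold was 2.81 (SE 0.15, edgeR adjusted p = 2.41e-05). TfAP-2 measured 100, 103, 145, 107, 224 and 215 CPM in positive and 34.7, 33.0, 63.0, 42.0, 93.5 and 54.6 CPM in negative cells. Every positive value was above every negative one. The fold of TfAP-2 was 1.47 (SE 0.11, edgeR adjusted p = 5.01e-05). Smaller rises were those of drm (1.28, edgeR adjusted p = 0.0103), sob (1.14, edgeR adjusted p = 0.00962), nub (0.64, edgeR adjusted p = 0.014) and bowl (0.45, edgeR adjusted p = 0.000299). Both drm and nub were higher in 5 of 6 libraries and not in the 36 h male. nub lost its call without the 12 h female (edgeR adjusted p = 0.0532). Without cells that held a UMI of sr, the drm fold was 1.97. odd was 0.48 (edgeR adjusted p = 0.277).

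The members of the Notch pathway split in dysf-positive cells: of 17 tested, 7 rose, beside 13.7% of all genes, and 4 fell, beside 14.0%. The receptor gene N (0.49), the ligand genes Dl (0.82) and Ser (0.86), bib (1.47) and the bHLH gene dpn (1.74) rose, as did the nuclear factors H and mam. fng, whose enzyme modifies Notch, fell (-0.92), as did the Notch target genes E(spl)mgamma-HLH, E(spl)mdelta-HLH and E(spl)m8-HLH. Of 5 genes listed as partners or targets of Dysf in the leg, RhoGEF2 rose by a small fold (0.32), and rpr, hid, RhoGAP71E and tgo, the gene of its dimer partner, did not pass. Of 13 proximo-distal genes tested, dac, Dll, bab1 (0.90), bab2 (0.82) and the Snail-family gene esg (1.58) rose, while ss (-1.63), ap, B-H1 (-2.20) and B-H2 fell. Of 12 compartment and dorso-ventral genes tested, 9 rose, wg (1.07) among them, and the Iroquois genes ara (-0.83) and caup (-0.78) fell. None of Scr, Antp, dsx and fru passed.

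The genes that rose most by the naming rule in dysf-positive cells were CG34205 (3.48), CG17777 (3.08), net, CG11131 (2.51) and CG2016 (2.23), all higher in 6 of 6 libraries. CG17777 ran from 1.46 to 10.2 CPM in the positive cells of the 5 younger libraries and reached 919 CPM in those of the 36 h male, against 104 CPM in the negative cells there. CG34205 went the other way, with 289, 520 and 308 CPM up to 16 h (both 12 h libraries, then the 16 h male) and 3.46 CPM at 36 h. The largest falls were those of lncRNA:CR30009 (-3.34) and CG15209 (-3.0). Of markers of other cells in the dysf contrast, 2 of 2 hemocyte, 2 of 3 muscle, 2 of 4 glia and 5 of 6 bristle lineage markers tested fell. Of 4 neuron markers Syt1 rose (0.40, edgeR adjusted p = 0.0373) and fne fell, of 2 tendon markers slow rose, and 4 of 6 epithelium markers rose. Tendon markers summed to 6.67 to 98.7 CPM in positive and 6.73 to 58.8 CPM in negative cells, higher in the positive cells of 4 of 6 libraries. Over the 3 lists that follow, summed levels in positive cells were lower in 6 of 6 libraries, at 11.01 to 19.7 against 12.6 to 47.0 CPM for hemocytes, 25.9 to 219 against 80.8 to 336 CPM for muscle and 18.7 to 86.8 against 43.5 to 161 CPM for the bristle lineage. Their part in the folds was not tested.

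In TfAP-2-positive cells 6 of the other 7 genes rose, beside 9.12% of all 8364 genes tested, and nub fell, beside 9.41%. nub measured 12.5, 9.22, 8.41, 5.13, 4.21 and 3.57 CPM in positive cells and 30.4, 25.7, 20.0, 18.5, 12.6 and 7.67 CPM in negative cells. It was lower in 6 of 6 libraries. The fold of nub was -1.41 (SE 0.09, edgeR adjusted p = 4.2e-05). Both net (2.79) and dysf (1.24) rose most among the 8 genes and in every library. drm (0.75, edgeR adjusted p = 0.0197) and odd (0.71, edgeR adjusted p = 0.0184) passed by less. With edgeR each lost its call without the 12 h female (adjusted p = 0.0655 for drm, 0.0548 for odd) and without the 16 h male (0.0721 and 0.0551), and drm also without the 12 h male (0.0623) and odd without the 20 h male (0.0504). Without cells that held bristle lineage UMIs the drm call was lost too (adjusted p = 0.158), and that of odd in cells with at least 2 TfAP-2 UMIs (adjusted p = 0.108). Without cells that held sr, the drm fold was 1.54.

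TfAP-2-positive cells had other patterning genes. Ser, the ligand gene that rose in dysf-positive cells, fell here (-1.64), and the difference between the 2 contrasts was not tested. Of 18 Notch pathway genes 2 rose (N, mam) and 7 fell, Ser the furthest. fj, a Notch-dependent gene of leg growth, rose (1.36). Lim1 (-2.29), al (-1.0), ara (-1.16) and caup (-1.28) fell in 6 of 6 libraries. sr, the gene of the tendon factor Stripe, fell too (-1.18), and dsx was slightly lower (-0.36). By the naming rule the genes raised most were Obp99a (3.35), whose product binds odorants, lncRNA:CR43939 (3.10), net, and the neighbouring Pax genes gsb (2.39) and gsb-n (2.24). Obp99a reached 2558 CPM in TfAP-2-positive cells of the 20 h male, against 409 CPM in their partners, and 26.4 against 1.80 CPM in the 12 h male. CG32032 (-3.31) and CG33557 (-3.02) fell most. Of the other cells' markers, 1 of 4 neuron and 2 of 4 glia markers tested fell, and nrv2, of the glia list, and slow, of the tendon list, rose. Of the rest, 4 of 4 hemocyte, 3 of 4 muscle and 5 of 7 bristle lineage markers fell. The summed levels of these 3 lists were 9.27 to 15.7 against 17.2 to 66.5 CPM, 34.4 to 200 against 95.5 to 343 CPM and 22.0 to 55.0 against 62.1 to 181 CPM, and their part in the folds was not tested.

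net-positive cells numbered 175 to 312 per library. dysf and TfAP-2 rose there, 2 of 6 genes tested beside 1.21% of all 6433 genes, and drm fell, beside 2.88%. dysf measured 38.2, 24.5, 51.9, 124, 114.5 and 128 CPM in positive cells and 11.8, 6.28, 11.4, 38.1, 33.2 and 23.4 CPM in negative cells (fold 1.88, SE 0.12, edgeR adjusted p = 1.81e-05). In each library the positive value was at least 2-fold above its partner, though the ranges of the groups overlapped across ages. TfAP-2 rose by 1.53 (SE 0.13, edgeR adjusted p = 0.000126). The fold of drm was -0.84 (edgeR adjusted p = 0.0278), and its call was lost without the 12 h female (0.0545), the 12 h male (0.0654), the 20 h male (0.116) or the 24 h female (0.0632), and with negative cells not paired on depth (0.335). sob was -0.83 (edgeR adjusted p = 0.0712).

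Patterning genes in net-positive cells followed those of dysf-positive cells in part. bib (1.35), dpn (1.42), N (0.38) and Dl (0.43) rose and fng fell (-0.79), 4 of 17 Notch pathway genes up and 3 down. dac, Dll, bab2 and esg (1.04) rose among the proximo-distal genes. dsx was lower in 6 of 6 libraries (-0.44, edgeR adjusted p = 0.0152), as was the epithelium marker grh (-0.37, edgeR adjusted p = 0.0372). No other epithelium marker passed. The genes raised most were CG17777 (4.24), CadN (2.44), the gene of N-cadherin, Obp99a (2.37), dysf and CG1607 (1.79). CadN measured 185, 128, 266, 364, 330 and 567 CPM in positive and 22.9, 22.6, 70.2, 92.0, 72.5 and 47.3 CPM in negative cells, so the groups did not overlap. lncRNA:CR30009 (-2.16) and Dro (-2.12), an antimicrobial peptide gene, fell most. Of 3 muscle markers tested, 1 fell, and no hemocyte, neuron or glia marker passed. Of the bristle lineage markers only sv and pros were tested, and neither passed. Untested sens measured 31.3 and 68.1 CPM in positive cells of the 12 h female and male, against 9.93 and 19.0 CPM. For ase these were 18.7 and 26.7 against 3.055 and 7.26 CPM. From 16 h on sens was at most 2.29 CPM and ase at most 3.05 CPM in either set. Summed bristle lineage markers were 19.1 to 152 against 38.6 to 124 CPM, higher in 3 of 6 libraries. Their part in the folds was not tested.

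nub-positive cells were set apart by other leg patterning genes, given further below, and their position in the leg was not measured. Of the 8 genes, sob (0.84, edgeR adjusted p = 0.00283) and drm (0.73, edgeR adjusted p = 0.0162) rose, 2 of 7 beside 0.877% of all 7525 genes tested, and TfAP-2 fell, beside 2.58%. TfAP-2 measured 25.4, 16.9, 34.3, 20.2, 29.0 and 13.0 CPM in positive and 41.9, 37.2, 57.1, 49.4, 63.4 and 47.0 CPM in negative cells, a fold of -1.15 (SE 0.14, edgeR adjusted p = 0.00365). The groups did not overlap. drm lost its call without the 20 h male (edgeR adjusted p = 0.0519), without bristle lineage cells (0.119), with negative cells not paired (0.0766) and in cells with at least 2 nub UMIs (log2 0.12), and sob lost it in the latter (log2 0.53).

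The LIM-homeodomain gene Lim1 measured 195, 137, 144, 190, 103 and 56.6 CPM in nub-positive cells and 58.4, 48.5, 37.4, 22.2, 6.76 and 9.26 CPM in their partners (fold 2.35, SE 0.29, edgeR adjusted p = 0.00365). It was higher in 6 of 6 libraries. The Iroquois genes ara (2.46) and caup (2.53), the homeobox genes al (1.70) and hth (1.64), Antp (0.88) and both ligand genes Dl (0.71) and Ser (0.86) rose too, while bab1 (-1.0), bab2 (-1.03), fng (-0.63) and fj (-0.55) fell. pdm2, a POU gene like nub, rose by 3.09 from 0.150 to 1.01 CPM in negative cells to 1.86 to 8.84 CPM in positive cells. By the naming rule CG14191 (3.43), CG13386 (3.31), pdm2, CG34205 (3.0) and CG12911 (2.88) rose most, and alphaTub85E (-3.26) and CG33557 (-2.90) fell most. No marker of hemocytes, neurons, glia, muscle or the bristle lineage passed. Summed bristle lineage markers were 32.5 to 666 CPM in positive and 45.4 to 148 CPM in negative cells, higher in the positive cells of 3 of 6 libraries, and their part in the folds was not tested.

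**Figure D3:**
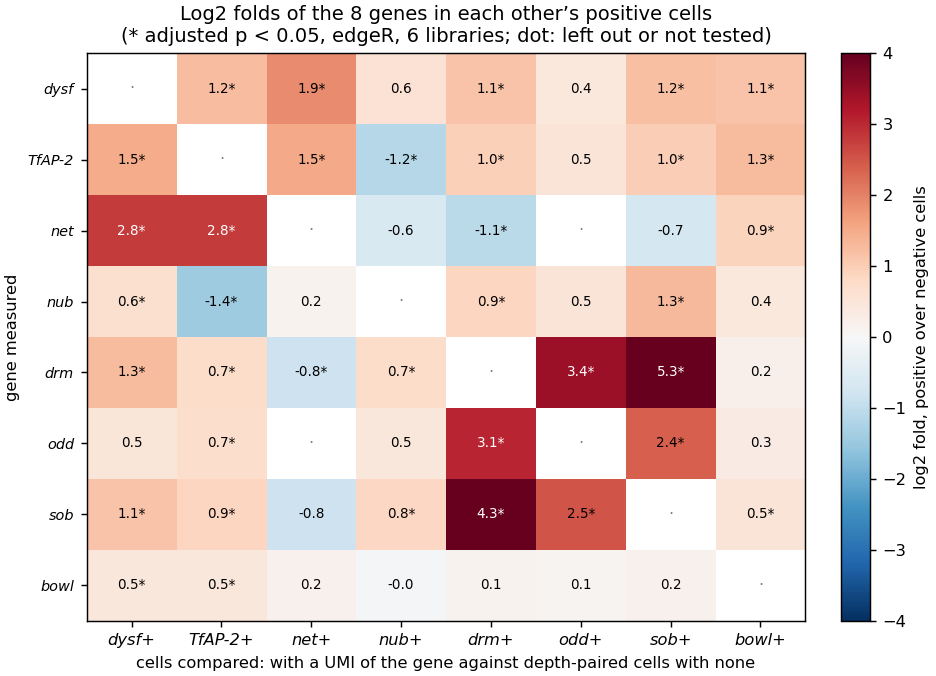
Log2 fold of each of the 8 genes (vertical axis) in cells positive for another (horizontal axis) against depth-paired negative cells, over 6 libraries; asterisks mark an edgeR adjusted p under 0.05. net stands at 2.81 in dysf-positive and 2.79 in TfAP-2-positive cells, drm and sob at 5.30 and 4.30 in each other's cells, and nub at -1.41 in TfAP-2-positive cells.

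In drm-positive cells sob and odd rose most among the 8 genes, and 5 of 7 rose in all, beside 9.21% of all 6653 genes tested. sob measured 84.0, 120, 172, 150, 121 and 95.3 CPM in positive cells and 6.11, 4.97, 11.3, 6.02, 5.14 and 0 CPM in negative cells. No positive value came near a negative one, and the fold was 4.30 (SE 0.18, edgeR adjusted p = 3.33e-06). odd measured 11.8, 15.6, 16.6, 17.1, 21.1 and 32.6 CPM in positive and 2.41, 0.510, 1.06, 3.91, 2.57 and 3.75 CPM in negative cells (fold 3.06, SE 0.30, edgeR adjusted p = 0.00023). dysf (1.13), TfAP-2 (0.96) and nub (0.86) rose by less. net was lower in 6 of 6 libraries (-1.09, edgeR adjusted p = 0.0452, beside 9.12% of genes lower), a call lost without the 12 h female (0.0837), the 12 h male (0.0573), the 16 h male (0.109) or the 20 h male (0.101), with no doublet removal (0.0548) and with twi cells kept (0.0923).

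A minority of drm-positive cells held sr, whose product Stripe directs tendon cell fate. Of them 20.1%, 20.2%, 19.5%, 21.5%, 12.9% and 24.1% had an sr UMI, against 4.89%, 2.12%, 1.95%, 7.88%, 2.58% and 19.7% of all drm-negative cells. Those negative cells were not paired on depth. The drm-positive cells with sr numbered 104, 134, 93, 71, 22 and 20. At like depth 32.0, 27.2, 15.2, 29.9, 5.60 and 15.9 were expected. The 10 drm-positive cells with most sr held 29.2% to 80.8% of the sr UMIs in a library's drm-positive cells. In sums, sr measured 79.9, 92.3, 110, 145 and 50.9 CPM in the drm-positive cells of the 5 younger libraries, against 7.78, 4.08, 4.58, 11.7 and 2.06 CPM in negative cells. In the 36 h male the order turned, with 63.9 CPM in 83 positive and 85.1 CPM in 83 negative cells. The fold over all 6 libraries was 3.21 (SE 0.53, edgeR adjusted p = 0.00341), and 3.96 without the 36 h male. Tsp (4.54), the gene of the matrix protein thrombospondin, Cpr62Bc (4.17), a cuticle protein gene, CG13056 (7.13) and CG13038 (4.45) rose with sob as the genes raised most. CG13056 reached 4548 CPM in the drm-positive cells of the 20 h male, against 10.5 CPM in their partners. Osi11 (-2.68) and klg (-2.59) fell most.

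The folds within the odd-skipped family also passed with every cell holding an sr UMI left out, a choice made after the data were seen. Then sob in drm-positive cells stood at 3.79 (edgeR adjusted p = 1.43e-05). The fold of odd in drm-positive cells was 2.96 (edgeR adjusted p = 0.000974), and that of drm in sob-positive cells 4.92 (edgeR adjusted p = 4.57e-06). The number of genes that passed in the drm contrast went from 1220 to 755.

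sob-positive cells resembled drm-positive cells. There 5 of the other 7 genes rose, beside 11.2% of all 7225 genes tested. drm measured 137, 243, 191, 174, 89.1 and 123 CPM in positive and 5.63, 5.17, 8.41, 3.41, 0.555 and 0 CPM in negative cells (fold 5.30, SE 0.26, edgeR adjusted p = 2.62e-06). odd (2.38) and nub (1.31, edgeR adjusted p = 1.15e-05) were higher in 6 of 6 libraries, and dysf (1.20) and TfAP-2 (1.00) rose as well. sr rose by 3.15 (SE 0.43, edgeR adjusted p = 0.00099). It measured 60.3, 80.9, 85.6, 93.7, 16.3 and 49.0 CPM in positive and 4.62, 2.27, 6.45, 10.8, 3.52 and 35.3 CPM in negative cells, with the least distance in the 36 h male. slow, the second tendon marker, rose by 1.00. CG13056 (7.22), drm, Cpr67Fa2 (4.51), Tsf1 (4.03), the transferrin gene, and yellow-e (4.01) rose most, and CG33557 (-3.64) and CG10479 (-3.52) fell most.

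drm-positive and sob-positive cells shared several patterning changes. esg (1.88 and 1.63), wg (1.27 and 0.79), bib (1.52 and 1.31) and Antp (1.05 and 0.94) rose in both, and bab1, bab2 (-0.75 and -0.96) and ss (-1.46 and -1.68) fell in both. fng fell in both, and dsx was slightly lower (-0.34 in both). Of 17 Notch pathway genes tested, 4 rose with drm, beside 9.21% of all genes, and 3 fell, beside 9.12%. With sob 3 rose, beside 11.2% of all genes, and 2 fell, beside 11.6%. In the drm contrast 1 of 2 hemocyte, 1 of 3 muscle and 2 of 3 bristle lineage markers tested fell, and in the sob contrast 3 of 3, 1 of 2 and 3 of 4, with 1 muscle marker (Mef2) higher. In both, 2 of 3 glia markers and the neuron marker fne fell, and Syt1 rose with sob. Summed muscle markers were 57.7 to 210 CPM in drm-positive and 102 to 239 CPM in drm-negative cells, and 27.4 to 191 against 60.5 to 228 CPM for sob. Bristle lineage markers summed to 14.4 to 107 against 50.8 to 124 CPM for drm and 13.8 to 87.2 against 64.1 to 114.5 CPM for sob. Their part in the folds was not tested.

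odd-positive cells had few calls: 11 genes higher, 0.17% of the 6477 tested, and 4 lower, 0.0618%. drm (3.41, SE 0.22) and sob (2.52, SE 0.18) were 2 of the 11, both at an edgeR adjusted p of 6.31e-05. drm measured 76.9, 323, 209, 81.6, 85.5 and 18.7 CPM in positive and 7.89, 29.1, 35.6, 7.56, 5.07 and 0.331 CPM in negative cells, higher in 6 of 6 libraries. CG13056 (3.30), Tsf1 (2.36) and CG13038 (2.35), all among the genes raised with drm or sob, rose too, and Pdp1 (-1.13) and beat-IIIc (-0.80) fell most. sr stood at 2.06 (edgeR adjusted p = 0.107). Without the 36 h male, 181 genes passed and sr was at 2.97 (edgeR adjusted p = 0.000948). In cells with at least 2 odd UMIs neither drm (log2 4.25, edgeR adjusted p = 0.0785) nor sob (3.05, edgeR adjusted p = 0.0528) passed. A library needed at least 20 positive cells. Only the 12 h male (25), 20 h male (24) and 36 h male (38) had that many, so this fit rests on fewer libraries than the main one.

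**Figure D4:**
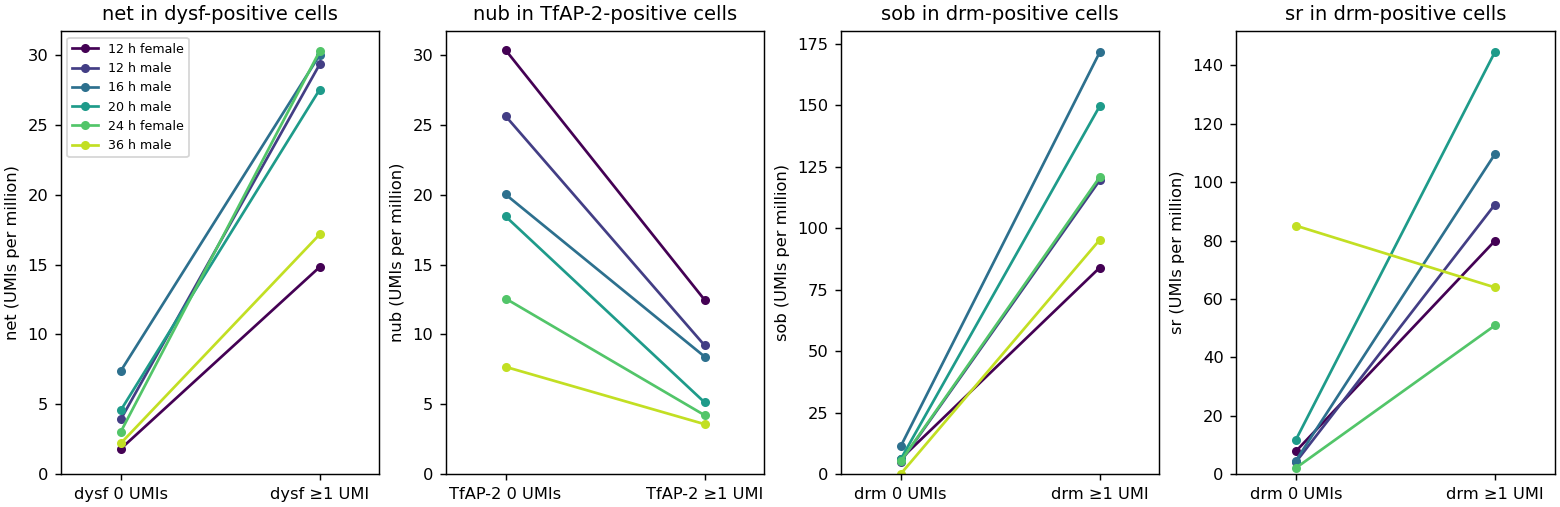
Level in CPM (vertical axes, from 0) of net, nub, sob and sr in cells with 0 and with at least 1 UMI of dysf, TfAP-2, drm and drm, one line per library. net and sob rise and nub falls in all 6 libraries, while sr rises with drm in 5 and runs from 85.1 to 63.9 in the 36 h male.

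bowl was found in most cells, so its contrast sets the majority of cells against the rest. The pairing on depth failed in 3 libraries, where the median positive and negative cells held 7355 and 3442 UMIs (12 h female), 9678.5 and 2843 (12 h male) and 6950 and 4494.5 (20 h male). Values with pairs held within 5% of total UMIs, a choice made after the data were seen, are therefore set beside the folds. dysf rose by 1.14 (1.01 within 5%), TfAP-2 by 1.28 (1.22) and net by 0.89 (0.75), all passing both ways, and sob by 0.51, which did not pass within 5% (0.38, edgeR adjusted p = 0.137). That made 4 of 7 higher, beside 18.1% of all 8538 genes tested. nub (0.42), drm (0.21) and odd did not pass. The genes raised most were CG13050 (1.48), CG14218 (1.48), the Wnt genes wg (1.45) and Wnt6 (1.44), and CG13239 (1.43). wg measured 35.2, 42.4, 29.8, 41.9, 36.9 and 19.7 CPM in positive and 11.6, 12.9, 15.9, 12.4, 10.1 and 16.2 CPM in negative cells. CG42792 (-5.13) and Jon25Bi (-4.60) fell most, the former led by 215 CPM in negative cells of the 12 h male.

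lin, the gene of the Bowl inhibitor, was slightly higher in bowl-positive cells (0.36), as were dac (0.78), dsx (0.87) and Scr (0.50), while Antp fell. Markers of other cells weighed on the bowl-negative side. In bowl-positive cells 4 of 4 hemocyte, 3 of 4 muscle and 5 of 7 bristle lineage markers tested fell, beside 15.2% of all genes. Among the muscle markers Him (-3.75) and zfh1 (-3.39) fell furthest, and Mef2 rose. Of 4 glia markers 2 fell and nrv2 rose, and 1 of 4 neuron markers fell. For the epithelium list 6 of 6 markers rose, beside 18.1% of all genes. Muscle markers summed to 33.2 to 212 CPM in positive and 177 to 691 CPM in negative cells, and bristle lineage markers to 39.0 to 100 against 107 to 283 CPM. The part of these cells in the folds was not tested, but in cells with at least 2 epithelium markers dysf (0.99), TfAP-2 (1.15) and net (0.76) still passed, and sob (0.36, edgeR adjusted p = 0.0796) did not. In the other 7 contrasts every call among the 8 genes held in those cells.

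**Figure D5:**
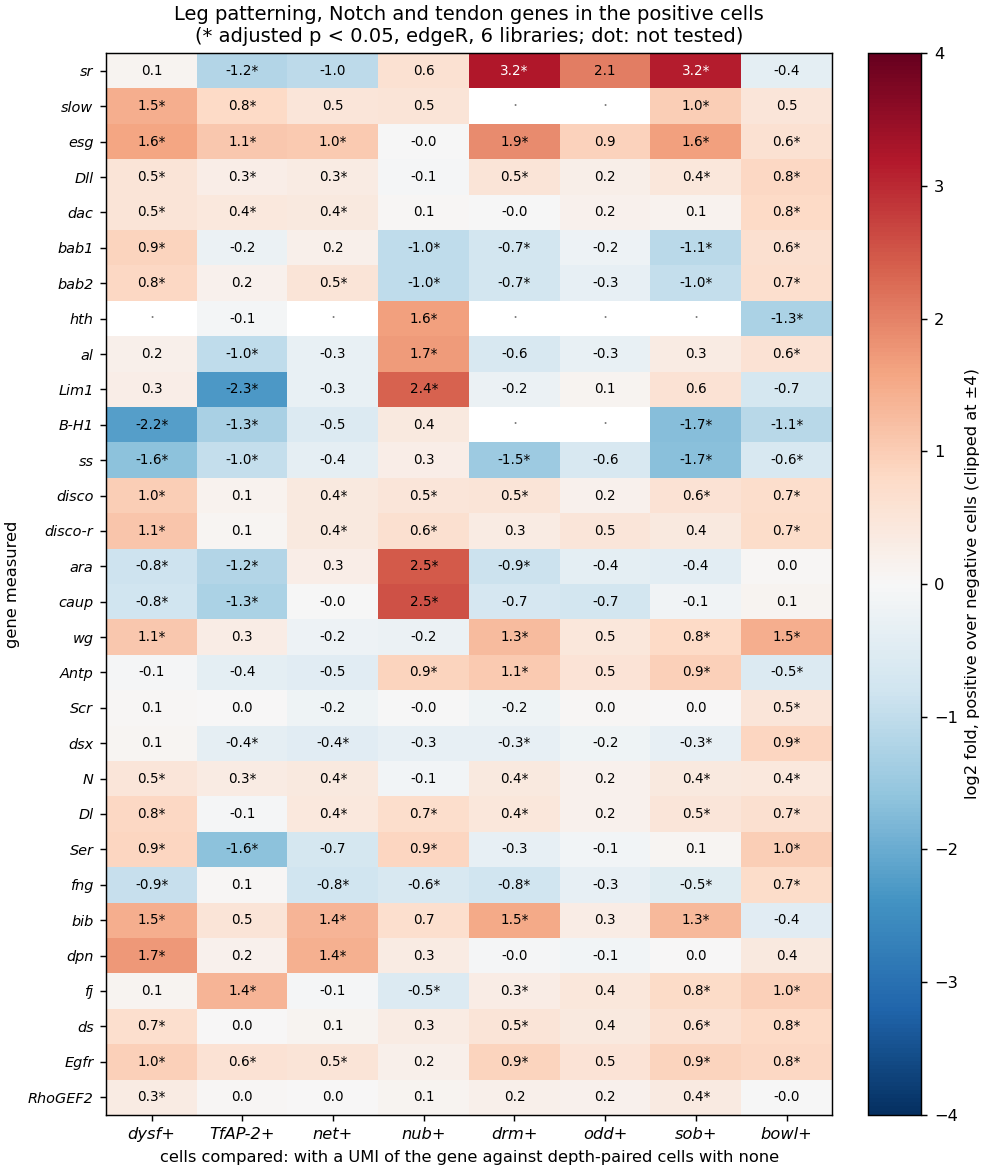
Log2 folds of listed leg patterning, Notch pathway and tendon genes (vertical axis) in cells positive for each of the 8 genes (horizontal axis) against paired negative cells, over 6 libraries; asterisks mark an edgeR adjusted p under 0.05 and dots genes not tested. sr stands out with drm (3.21) and sob (3.15), Lim1, ara and caup with nub (2.35, 2.46 and 2.53), and the same 3 genes fall with TfAP-2 (-2.29, -1.16 and -1.28).

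The number of genes that passed depended on the libraries. It was 2146 for dysf, 1550 for TfAP-2, 263 for net, 260 for nub, 1220 for drm, 15 for odd, 1651 for sob and 2845 for bowl. Without the 36 h male it was 406 for net, 181 for odd and 1613 for drm. Without the 12 h male it fell to 631 for drm, 1046 for sob and 166 for net, without the 12 h female to 732 for drm, 951 for sob, 173 for nub and 4 for odd, and without the 20 h male to 137 for net, 161 for nub and 5 for odd. Without the 16 h male it was 692 for drm and 158 for net, and without the 24 h female 151 for net and 173 for nub; odd gave 7 calls without the 12 h male. No fold among the 8 genes that passed turned sign in any of these.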

How the data were processed

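The authors deposited raw UMI counts for each cell and gene. Cell Ranger 7.0.0 made them per the file headers, on BDGP6 per the submitters' processing notes. Another 2 matrices have no sample among the labels and were left aside. How the authors' tool shared out reads of related genes was not examined. Filters removed cells under 500 genes or over 10% mitochondrial UMIs, and cells with the highest Scrublet scores (scanpy 1.11.5) as doublets at 0.8% per 1000 cells, 901 to 1552 per library. Libraries held 48468246 to 95912242 epithelial UMIs, so 3 UMIs, the floor of detection, were at most 0.0619 CPM. Levels have exact Poisson, shares Clopper-Pearson and ratios conditional binomial intervals at 95%. The 8 genes and all lists were chosen with earlier results of these data known.

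Positive cells were paired within a library with negative cells of nearest total UMIs. The positive and negative sums of a library come from the same pool of animals, which is why the library is a block. Sums were tested with edgeR 4.0.16 (TMM, filterByExpr, glmQLFit, R 4.3.3). The defining gene was left out of its own test. In each contrast the 5 genes with the largest rise and the 2 with the largest fall were named, among those past 0.05 with at least 100 UMIs in the higher cells and one direction in all 6 libraries, without mitochondrial and rRNA genes. For bowl the smaller side, the negative cells, was paired. In data simulated for the dysf contrast over 7659 genes, 94.6% of genes raised by a log2 of 1 and 69.0% of those raised by 0.5 were called. Falls were called less often, 84.6% at a log2 of -1 and 53.2% at -0.5. Of unchanged genes 0.161% were called. Alternatives were DESeq2 1.42.0, RLE size factors, no filter on low counts, no block, other cell sets and pairings, and each library left out.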

Additional observations from a re-analysis of the deposited data

Results flagged for a closer look

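In 6 cases the fold of 1 library stood far from the other 5 by Dixon's criterion. Chance meets this criterion in about 1 of 20 sets of libraries. The contrasts tested 54 folds of one joint gene in cells of another, beside those of sr. At that rate some such cases arise by chance alone, and which of the 6 did was not tested. Folds here are log2 positive over negative within a library, with 0.5 counts added. Of the 6 cases 3 belong to the 36 h male, which had the fewest drm-positive cells, 83. sr in drm-positive cells was -0.41 there and 3.34 to 4.53 in the other libraries. sob in drm-positive cells was 7.26 there and 3.76 to 4.60 elsewhere, but the negative cells held 0 sob UMIs, so the value rests on the added count. Against a floor of 3 UMIs, sob was at least 25.4-fold higher. drm in net-positive cells was -3.17 there and -1.29 to -0.33 elsewhere, on 0 drm UMIs in positive and 4 in negative cells. The other 3 were sob in odd-positive cells of the 12 h male (3.41, others 2.05 to 2.46), bowl in odd-positive cells of the 16 h male (-0.30, others 0.11 to 0.30) and bowl in sob-positive cells of the 20 h male (-0.14, others 0.16 to 0.32).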

How the results depend on the processing

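No value that passed changed sign under any alternative run. Of 36 calls among the 8 genes and 2 of sr (38 in all), 0 were lost with DESeq2, RLE size factors or no filter on low counts, 0 of the 35 that could be tested with sr cells left out (not those of sr, or of net in drm-positive cells), 1 with no doublet removal, 1 with twi cells kept, 3 without pairing, 3 without bristle lineage cells and 6 of the 36 that could be tested with positive cells defined by 2 UMIs. Leaving out 1 library lost 0 to 5. At 2 UMIs the odd contrast rested on the 12 h, 20 h and 36 h males alone.

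The pairing of positive and negative sums by library carried the tests. With no replicate block 32 of the 38 calls were lost, and the genes that passed numbered 61 for dysf, 35 for TfAP-2, 0 for net, 0 for nub, 12 for drm, 0 for odd, 71 for sob and 324 for bowl. Most folds themselves moved little. The larger moves included sr in drm-positive cells, from 3.21 to 2.29, and in sob-positive cells, from 3.15 to 2.64. The fold of dysf in drm-positive cells went from 1.13 to 0.87. Without the block, libraries of different age stand in the residual spread.

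Other counts of calls that moved by over 1.5 times were, for net-positive cells, 744 with no filter on low counts and 862 without pairing. For nub-positive cells they were 431 with DESeq2, 449 with no filter, 116 at 2 UMIs and 460 without bristle lineage cells. For drm-positive cells they were 644 without bristle lineage cells and 755 without sr cells, and for sob-positive cells 1078 without bristle lineage cells. For odd-positive cells they were 87 with DESeq2, 25 with RLE size factors, 599 with no filter, 3 at 2 UMIs, 33 without pairing, 39 with no doublet removal and 9 without sr cells. The cause was not tested.

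With 1 library left out, calls ranged from 1517 to 2299 for dysf, 1065 to 1715 for TfAP-2, 137 to 406 for net, 161 to 329 for nub, 631 to 1613 for drm, 4 to 181 for odd, 951 to 2065 for sob and 2073 to 2780 for bowl. Each upper end was reached without the 36 h male.

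Of the library ratios, members past 2-fold in the 20 h against the 12 h male numbered 1, not 2, with no doublet removal, a minimum of 1000 genes or twi cells kept. The gene was odd. Pairs below the expected number in all 6 libraries were 2, not 4, at a minimum of 1000 genes. Thinning cells to 3000 UMIs moved 11 of 28 pair ratios by more than their SD over libraries: in mean log2, dysf with TfAP-2 from 0.69 to 1.22, dysf with net from 1.53 to 2.01, TfAP-2 with net from 1.18 to 1.88, nub with sob from 1.04 to 1.44, and odd with bowl from 0.05 to -0.01. It moved 27 of 40 ratios between libraries beyond their intervals. The choices on twi cells, sr cells, 2 epithelium markers and pairs within 5% were made after seeing the data. Depth limits the rarer genes most: odd, net and, in the 36 h male, drm and sob rest on 179 to 504 UMIs there.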

Other observations

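Cells left out of the epithelial set for a UMI of twi or elav held some of the 8 genes at other levels. In the 36 h male, 466 cells with a twi UMI held dysf at 95.9 CPM (87.3 to 105), against 27.6 CPM in epithelial cells. net stood at 18.6 CPM (14.9 to 22.9) in them against 3.77, and TfAP-2 at 77.6 (69.8 to 85.9) against 60.3. Mef2, a muscle gene, was no higher in them (17.9 against 22.0 CPM). In the other 5 libraries dysf measured 7.497 to 28.2 CPM in twi cells, against 10.8 to 24.0 in epithelial cells. Mef2 was higher in the twi cells of 4 of these 5 libraries, for example 208 against 144 CPM in the 12 h female.

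Cells left out for an elav UMI, 1319 to 2799 in the 3 youngest libraries, held more drm and sob. drm measured 61.8, 76.0 and 64.1 CPM in them in the 12 h female, 12 h male and 16 h male, against 19.2, 29.4 and 22.1 in epithelial cells. sob measured 26.1, 36.3 and 48.2 CPM, against 12.0, 15.5 and 19.3. In the 20 h male drm (19.0 against 16.6 CPM) and sob (12.7 in both sets) were close, and in the 36 h male drm was 2.14 against 3.91 CPM. These values were singled out after they were seen, carry counting intervals only and were not tested.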
